A study of Mus musculus with 6 samples.

Results

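The genes that run mitosis were followed in C2C12, a mouse myoblast line that withdraws from the cell cycle and fuses into myotubes when serum is changed. The set held 55 gene symbols, chosen by name as regulators of the G2 and M phases and as parts of the kinetochore, spindle, condensin and cytokinesis machinery, out of 43074 symbols in the deposited count table. All 55 were found and all 55 passed the filter on low counts, each with 537 counts or more in every library. RNA sequencing libraries came from 3 groups with 2 libraries each: untreated cells at day 0, cells after 4 days in medium with horse serum and DMSO, and cells after the same 4 days with 1 mM 4-phenylbutyric acid (4-PBA). All groups are the same line and carry no other agent in the labels, so they model muscle cells in culture and not muscle tissue, and nothing says whether the 2 libraries of a group came from separate cultures. The p-values therefore measure only the spread between these libraries, which may be technical. 4-PBA inhibits histone deacetylases and is also used to ease protein folding in the endoplasmic reticulum, and the study's title names the control of myoblast proliferation.

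Mitosis is set off by cyclin-dependent kinase 1 with its A- and B-type cyclins, and is ended when the anaphase-promoting complex marks cyclin B and securin for destruction. Between those steps condensin compacts the chromosomes, kinetochores attach them to spindle microtubules, the spindle checkpoint holds anaphase until all are attached, and the midzone then guides cleavage of the cell. Most of these genes are transcribed in a wave in G2, from promoters that carry a CHR element (cell cycle genes homology region) and CCAAT boxes, which are known to be bound by the MuvB complexes and by NF-Y. In differentiating myoblasts cell cycle exit precedes fusion, and the DREAM form of MuvB, with the pocket proteins p107 and p130, is known to repress such promoters in resting cells.

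The proximal promoters show these letters. RefSeq start sites of build GRCm38.p6 were listed for 45 of the 55 genes, and windows from 250 bases before the start to 50 after it were searched on both strands for the CHR letters TTTGAA, read as TTCAAA on the other strand, and for CCAAT, read as ATTGG there. The motifs can share at most 1 base. Only these exact letters were counted, and near variants of them were not searched, so a promoter without a match may still hold a variant. The deposited counts were made on another build, GRCm39, so these coordinates belong to the promoter table only. The 150 bases before the start are printed for 8 genes, 5′ to 3′ on the strand of the gene, with every CHR and CCAAT match in capitals. They are the promoters of the mitotic kinase (Cdk1), of topoisomerase II (Top2a), of the activator, the ubiquitin-conjugating enzyme and the protease of anaphase (Cdc20, Ube2c, Espl1) and of a chromosome-arm kinesin (Kif22), each with both motifs, then Ccnb1 with CCAAT boxes alone and Pttg1 with neither.
Cdk1 (chr10:69352913-69353062, minus strand): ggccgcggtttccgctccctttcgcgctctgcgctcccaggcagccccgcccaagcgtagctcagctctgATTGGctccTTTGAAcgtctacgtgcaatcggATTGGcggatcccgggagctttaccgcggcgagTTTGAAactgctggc
Top2a (chr11:99024190-99024339, minus strand): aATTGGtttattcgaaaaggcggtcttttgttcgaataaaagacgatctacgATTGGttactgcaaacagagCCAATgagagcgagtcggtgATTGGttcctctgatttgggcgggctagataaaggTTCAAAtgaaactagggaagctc
Cdc20 (chr4:118437344-118437493, minus strand): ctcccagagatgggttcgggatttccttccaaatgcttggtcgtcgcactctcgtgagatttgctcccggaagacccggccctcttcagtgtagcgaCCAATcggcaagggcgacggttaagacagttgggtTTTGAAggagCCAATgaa
Ube2c (chr2:164769779-164769928, plus strand): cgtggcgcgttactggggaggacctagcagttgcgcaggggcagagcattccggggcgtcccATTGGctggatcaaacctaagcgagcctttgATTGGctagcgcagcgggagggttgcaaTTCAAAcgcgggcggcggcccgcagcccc
Espl1 (chr15:102296143-102296292, plus strand): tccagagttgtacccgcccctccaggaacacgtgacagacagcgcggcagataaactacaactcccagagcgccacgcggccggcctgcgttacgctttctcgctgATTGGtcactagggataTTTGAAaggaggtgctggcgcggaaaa
Kif22 (chr7:127042421-127042570, minus strand): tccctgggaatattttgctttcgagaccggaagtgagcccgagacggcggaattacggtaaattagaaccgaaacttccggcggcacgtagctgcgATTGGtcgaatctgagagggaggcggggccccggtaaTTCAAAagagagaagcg
Ccnb1 (chr13:100786487-100786636, minus strand): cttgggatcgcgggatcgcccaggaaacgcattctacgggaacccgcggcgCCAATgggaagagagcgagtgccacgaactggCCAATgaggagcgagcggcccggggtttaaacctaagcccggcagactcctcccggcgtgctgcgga
Pttg1 (chr11:43425982-43426131, minus strand): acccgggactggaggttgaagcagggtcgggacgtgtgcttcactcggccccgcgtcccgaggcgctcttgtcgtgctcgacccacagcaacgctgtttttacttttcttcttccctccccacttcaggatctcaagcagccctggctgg
In 6 of these 8 windows a CHR lies close to the start with a CCAAT box before it. The values given further on set Ccnb1 and Pttg1, where the exact letters gave no such pairing, beside these 6.

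Of the 45 promoters, 32 (71.1%) held a CHR, 32 (71.1%) a CCAAT box and 28 (62.2%) both, while 9 (20%) held neither. Among the promoters of 12189 tested genes the shares were 12.5% for CHR, 38.8% for CCAAT and 5.30% for both. Over all 27025 genes with a listed promoter they were 18.1%, 37.9% and 7.12%. A CHR within 50 bases of the start was present in 29 of the 45 (64.4%) against 3.12% of tested genes. A CHR with a CCAAT box beginning 25 to 40 bases before it, a spacing chosen after the matches had been seen, was present in 15 (33.3%) against 0.632% of tested genes. In Cdk1 the spacing was 33 bases, in Cdc20 and Top2a 35, in Ube2c 28 and in Kif22 37. Such matches are letters in a window and not measured binding sites.

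**Figure D1:**
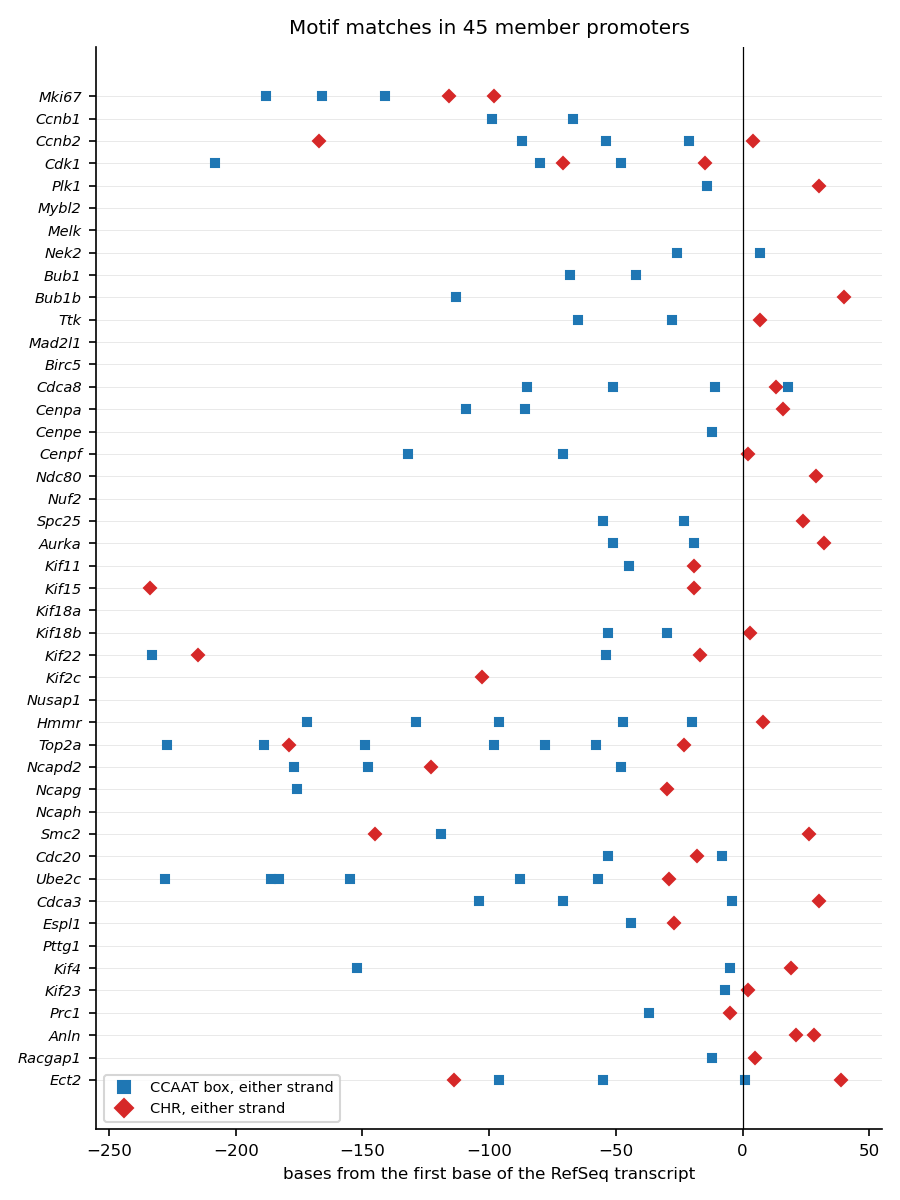
Positions of CHR matches (red diamonds) and CCAAT matches (blue squares) in 45 promoters, as bases from the RefSeq start on the horizontal axis, 1 gene per row. CHR matches gather within 50 bases of the start in 29 genes, and the 9 rows without symbols held neither motif.

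The samples were checked before the comparisons. Total counts per library lay between 47908926 and 74697397, and the 55 genes held between 1475 and 37803 counts per library at day 0 and between 537 and 11210 at day 4. Summed over 7 myoblast markers, among them Myod1 and Des, the level was 2224 and 2251 CPM (counts scaled to library size, with TMM factors) at day 0. It was 5072 to 5384 CPM at day 4, although Pax7 stayed at or under 1.40 CPM. The 7 did not all rise. Against day 0, 6 rose and 1 fell with DMSO, with log2 fold changes between -1.135 and 1.796. With 4-PBA, 5 rose and 2 fell, between -1.074 and 2.006. Summed over 10 myotube markers it was 97.9 and 101 CPM at day 0, 5348 and 5702 CPM under DMSO and 5237 and 5361 CPM under 4-PBA. Marker lists of adipocytes and of endothelial cells summed to at most 1.24 CPM in any library, those of osteoblasts to at most 3.41 CPM, and those of immune cells to at most 5.74 CPM, most of it Cd68. Ptprc, the pan-leukocyte marker, did not pass 0.0617 CPM.

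The DMSO libraries were not alike in the mitotic genes. DMSO replicate 2 was the lowest of the 4 day 4 libraries for all 55 genes, and the median gene was lower there than in DMSO replicate 1 by a log2 difference of -0.25, with a range from -0.45 to -0.041. Over all tested genes the median of the same difference was -0.0047, with 51.5% of genes lower in replicate 2. The day 0 replicates differed in these 55 genes by a median of 0.0090 and the 4-PBA replicates by 0.021. The same DMSO library had the higher summed level of myotube markers of the pair, 5702 against 5348 CPM, and the largest total count of all libraries. The part of either in the result was not tested. For the medians of the gene lists, and for some of their counts, values without this library are therefore given too.

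Day 4 DMSO libraries were first set against day 0 to ask how far the mitotic genes fell during differentiation without the drug. Time, medium and the added agent changed together in both comparisons with day 0, so their parts cannot be told apart. All 55 were lower, the median gene 3.67-fold (log2 fold change -1.88, quartiles -2.01 and -1.75), and edgeR's quasi-likelihood test with Benjamini-Hochberg adjustment over 17433 genes called all 55, with adjusted p-values from 3.59e-28 to 0.00105. Over all tested genes 66.3% were called, 33.8% as higher and 32.6% as lower, and the median log2 fold change was 0.023. Every gene fell by at least 2-fold, against 9.77% of all tested genes, and 15 fell by at least 4-fold, against 2.60%. For all 55, both DMSO libraries lay below both day 0 libraries, as for 39.9% of all tested genes (42% lay above). Without DMSO replicate 2 the median was -1.75, all 55 were called lower beside 59.1% of all genes called, and the role medians lay between -2.05 (anaphase and exit) and -1.63 (kinetochore). None was extinguished: the mean level left at day 4 with DMSO was between 18.8% and 38.2% of day 0, with a median of 27.3%. In bulk RNA, fewer dividing cells and less mRNA in each of them cannot be told apart.

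**Figure D2:**
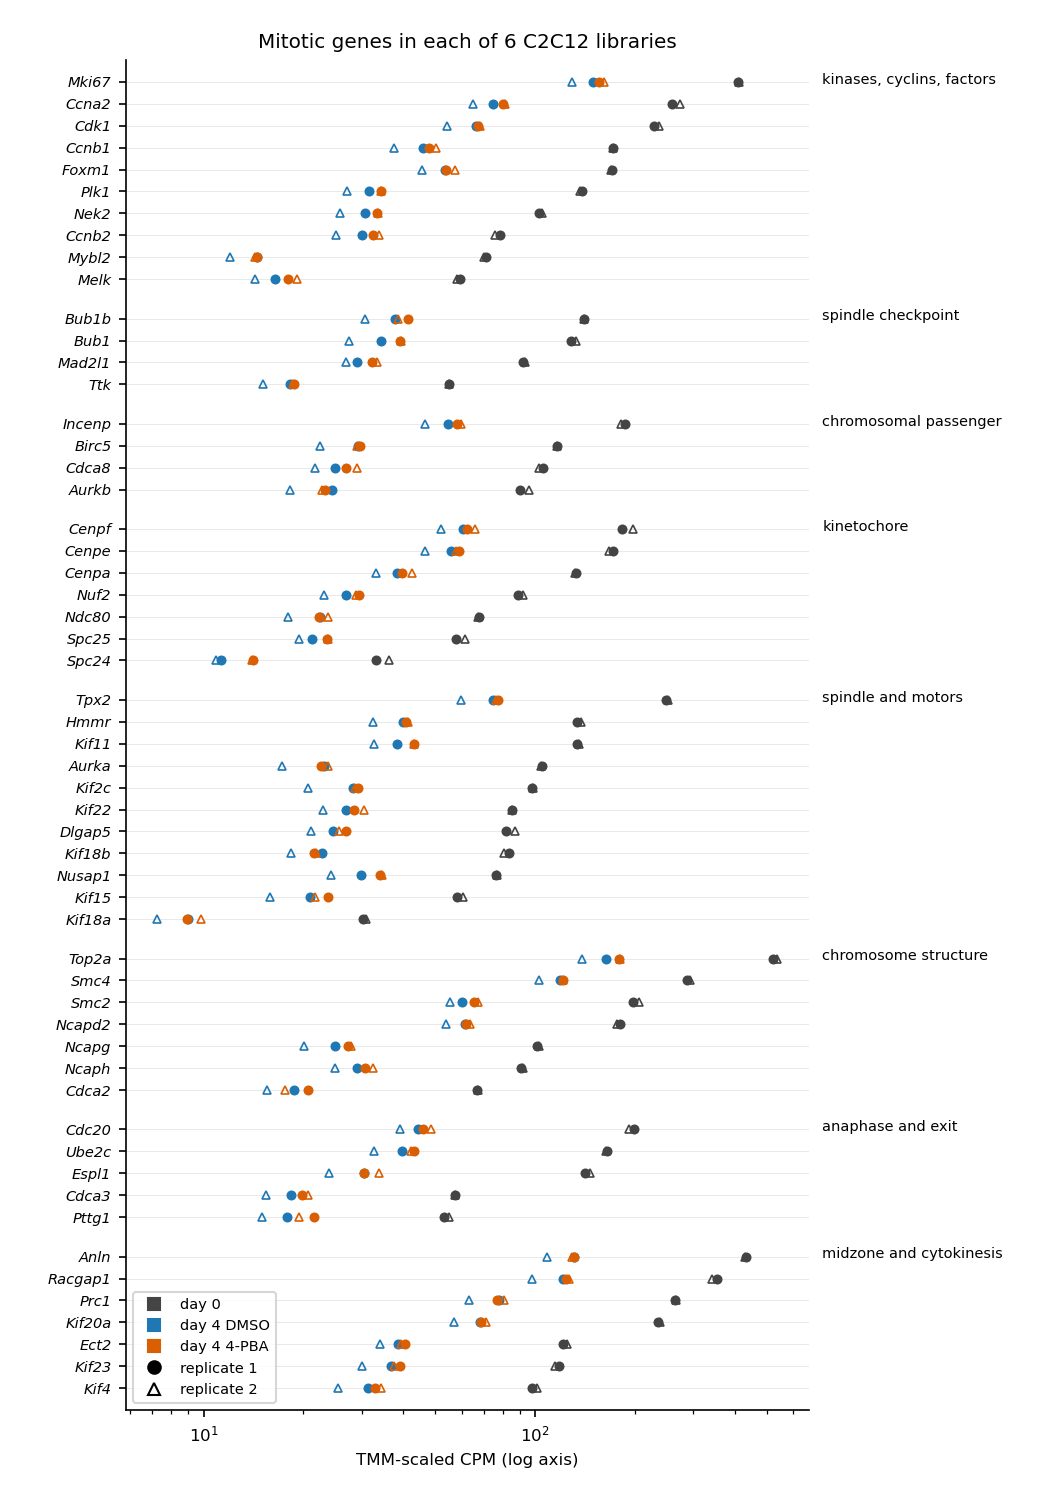
TMM-scaled CPM of the 55 genes on a log axis, 1 gene per row grouped by role, with 6 points per gene coloured by group, circles for replicate 1 and open triangles for replicate 2. The day 0 points lie to the right of the day 4 points in every row, and the open blue triangle (DMSO replicate 2) is the leftmost point in all 55.

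The list of entry regulators held kinases, cyclins and transcription factors, and also the proliferation marker Mki67. It fell by a median log2 fold change of -1.94 (10 of 10 called lower). Cdk1, the mitotic kinase itself, stood at 229 and 236 CPM at day 0, 66.2 and 54.4 CPM under DMSO and 67.3 and 68.3 CPM under 4-PBA. Its partner Ccnb1, cyclin B1, stood at 171 and 172 CPM at day 0, 45.8 and 37.5 CPM under DMSO and 48.0 and 50.1 CPM under 4-PBA. The day 0 libraries lay far above the other 4 for both genes, with log2 fold changes between DMSO and day 0 of -1.95 (SE 0.0961) and -2.04 (SE 0.0828). Ccnb2, the other B-type cyclin, kept more of its level: 78.3 and 75.9 CPM at day 0, 30.0 and 25.2 CPM under DMSO and 32.5 and 33.9 CPM under 4-PBA. At 35.8% left against 24.3% for Ccnb1, its fall with DMSO (-1.49, SE 0.0608) was the second smallest of the set. Ccna2, cyclin A2, fell by 1.93 on the log2 scale (SE 0.0516).

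Mybl2, which encodes B-Myb, the factor that joins MuvB to switch G2 genes on, fell the most. It stood at 70.9 and 70.1 CPM at day 0, 14.5 and 12.02 CPM under DMSO and 14.4 and 14.3 CPM under 4-PBA, a log2 fold change with DMSO of -2.42 (SE 0.0664, adjusted p 1.38e-25). Foxm1, the factor that follows B-Myb on the same promoters, stood at 171 and 170 CPM at day 0, 53.6 and 45.6 CPM under DMSO and 53.9 and 57.5 CPM under 4-PBA. Its log2 fold change was -1.78 (SE 0.0610), with 29.1% left against 18.8% for Mybl2. Plk1, the kinase of spindle and centrosome maturation, stood at 139 and 137 CPM at day 0, 31.6 and 27.03 CPM under DMSO and 34.3 and 34.3 CPM under 4-PBA. Mki67, the coat protein of mitotic chromosomes used as a proliferation marker, stood at 411 and 412 CPM at day 0, 150 and 129 CPM under DMSO and 156 and 162 CPM under 4-PBA. With 33.9% left under DMSO, Mki67 was among the genes that kept most, while Plk1 kept 21.3%. Melk, a mitotic kinase, and Nek2, the kinase that splits centrosomes, fell by 1.94 and 1.88 on the log2 scale.

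In the spindle checkpoint all 4 genes fell, with a median of -1.88. Bub1, the kinase that recruits the checkpoint to kinetochores, stood at 128 and 133 CPM at day 0, 34.4 and 27.4 CPM under DMSO and 39.1 and 39.3 CPM under 4-PBA. Mad2l1, whose product binds and blocks Cdc20, stood at 91.7 and 93.4 CPM at day 0, 29.1 and 26.9 CPM under DMSO and 32.1 and 33.3 CPM under 4-PBA. All day 0 libraries lay above all others for both, with log2 fold changes under DMSO of -2.09 (SE 0.0940) for Bub1 and -1.73 (SE 0.0497) for Mad2l1. Differences between genes were not tested, here or in the other roles. Bub1b (BubR1) fell by 2.04 and Ttk (the kinase Mps1) by 1.73 on the log2 scale.

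The chromosomal passenger complex, which corrects wrong attachments and then moves to the midzone, fell by a median of -2.15 over its 4 genes. Aurkb, its kinase, stood at 90.1 and 95.7 CPM at day 0, 24.4 and 18.2 CPM under DMSO and 23.3 and 22.7 CPM under 4-PBA. Incenp, its scaffold, stood at 186 and 182 CPM at day 0, 54.7 and 46.7 CPM under DMSO and 58.0 and 59.8 CPM under 4-PBA. The scaffold kept 27.5% and the other members of the complex 22.2% (Birc5, survivin), 22.4% (Cdca8, borealin) and 22.9% (Aurkb) of the day 0 level. For Aurkb the 4-PBA libraries lay between the DMSO libraries.

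Kinetochore genes fell by a median of -1.74 (7 of 7 called lower). Cenpa, the histone H3 variant that marks centromeres, stood at 133 and 132 CPM at day 0, 38.4 and 33.2 CPM under DMSO and 39.7 and 42.5 CPM under 4-PBA. Ndc80, the microtubule-binding subunit of the complex named after it, stood at 67.6 and 67.5 CPM at day 0, 22.4 and 18.0 CPM under DMSO and 22.3 and 23.7 CPM under 4-PBA. The 4 subunits of that complex fell by log2 fold changes between -1.86 for Nuf2 (SE 0.0555) and -1.55 for Spc25 (SE 0.0584), with Ndc80 at -1.74 (SE 0.0729) and Spc24 at -1.65 (SE 0.0730). The kinetochore motor gene Cenpe and the corona gene Cenpf fell by 1.73 and 1.76 on the log2 scale.

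Spindle genes and motors fell by a median of -1.91 (11 of 11 called lower). Aurka, the kinase of spindle poles, stood at 105 and 104 CPM at day 0, 23.1 and 17.2 CPM under DMSO and 22.7 and 23.8 CPM under 4-PBA, the third largest fall (-2.38, SE 0.137). Its activator Tpx2 stood at -1.89 (SE 0.123). Kif11, the motor that pushes spindle poles apart, stood at 134 and 136 CPM at day 0, 38.5 and 32.6 CPM under DMSO and 43.1 and 43.2 CPM under 4-PBA. Nusap1, which bundles spindle microtubules near chromatin, stood at 76.5 and 76.7 CPM at day 0, 29.8 and 24.3 CPM under DMSO and 34.1 and 34.6 CPM under 4-PBA. Nusap1 had the third smallest fall with DMSO (-1.51, SE 0.0668) and the largest share left with 4-PBA, 44.9%. The other 7 spindle genes (Kif15, Kif18a, Kif18b, Kif22, Kif2c, Hmmr and Dlgap5) fell by log2 fold changes between -1.70 and -2.01.

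Genes of chromosome structure fell by a median of -1.81 (7 of 7 called lower). Top2a, the topoisomerase that untangles sister chromatids, stood at 522 and 539 CPM at day 0, 164 and 139 CPM under DMSO and 179 and 181 CPM under 4-PBA. Smc4, a condensin ATPase, stood at 287 and 294 CPM at day 0, 119 and 103 CPM under DMSO and 122 and 122 CPM under 4-PBA. Its fall was the smallest of all 55 (-1.39, SE 0.0556), with 38.2% left. Smc2, the ATPase it pairs with, stood at 198 and 206 CPM at day 0, 60.2 and 55.2 CPM under DMSO and 65.3 and 67.4 CPM under 4-PBA. Ncapd2, a subunit of condensin I alone, stood at 180 and 177 CPM at day 0, 61.7 and 53.9 CPM under DMSO and 61.8 and 63.5 CPM under 4-PBA. Within condensin I the falls thus ran from -1.39 for Smc4 through -1.63 for Ncapd2, -1.76 for Ncaph and -1.81 for Smc2 to -2.19 for Ncapg (SE 0.0691). Cdca2, the phosphatase-targeting subunit Repo-Man, fell by 1.97 on the log2 scale.

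The list of anaphase and mitotic exit genes had the deepest median of any role here, -2.18 (5 of 5 called lower). Cdca3 was placed in this list for grouping only, and its log2 fold change was -1.765 (SE 0.0658). Espl1, separase, which cuts cohesin, stood at 141 and 147 CPM at day 0, 30.5 and 23.8 CPM under DMSO and 30.5 and 33.7 CPM under 4-PBA, a log2 fold change of -2.41 (SE 0.134). Pttg1, securin, its inhibitor, stood at 53.1 and 54.9 CPM at day 0, 17.8 and 15.0 CPM under DMSO and 21.5 and 19.5 CPM under 4-PBA. Securin kept 30.4% of its level with DMSO and separase 18.9%. Cdc20, the activator of the anaphase-promoting complex, stood at 199 and 192 CPM at day 0, 44.2 and 39.2 CPM under DMSO and 46.0 and 48.5 CPM under 4-PBA. Ube2c, the ubiquitin-conjugating enzyme of that complex, fell from 164 and 164 CPM to 39.8 and 32.6 CPM with DMSO. In GENCODE M21 exons of Ube2c overlap Tnnc2, a fast troponin gene on the opposite strand that stood at 2.20 and 2.51 CPM at day 0 and at 193 to 210 CPM in the day 4 libraries. Whether the counting used strand is not given in the sources used here, so the day 4 level of Ube2c is uncertain to that extent.

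Midzone and cytokinesis genes fell within a narrow range, from -1.92 for the motor gene Kif20a to -1.67 for Racgap1 of the centralspindlin complex (7 of 7 called lower). Prc1, the microtubule bundler of the midzone, stood at 265 and 265 CPM at day 0, 77.9 and 63.3 CPM under DMSO and 76.7 and 80.3 CPM under 4-PBA. Ect2, which activates RhoA at the cleavage furrow, stood at 121 and 125 CPM at day 0, 38.5 and 34.2 CPM under DMSO and 40.6 and 39.4 CPM under 4-PBA. Anln, the furrow scaffold anillin, kept 27.7% with DMSO and 30.1% with 4-PBA.

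Per kilobase of exon, day 0 levels ran from 3.12 CPM per kb for the kinesin gene Kif18a to 105 CPM per kb for Cdc20. Cdc20 was followed by Ccna2 at 65.2, Ube2c at 63.1, Plk1 at 62.7 and Top2a at 58.8 CPM per kb. At day 4 with DMSO the order at the top was Cdc20 at 22.3, Smc4 at 21.3, Ccnb2 at 18.0 and Ccna2 at 17.1 CPM per kb, so the 2 genes that kept most of their level moved up. Exon lengths came from GENCODE M21 and not from the unknown annotation of the counts. They join the exons of all transcripts listed for a gene and can exceed the mRNA present in these cells. The order of genes on this scale is therefore approximate. Exons of 16 of the 55 genes overlap another gene there, 13 of them on the opposite strand. The 39 without an overlap had a median log2 fold change of -1.86 with DMSO, and all 39 were called lower.

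Promoter letters and falls were then set side by side, with all libraries only. With DMSO the median log2 fold change was -1.85 for the 28 genes with both motifs and -1.86 for the 9 with neither. Of 134 other mitotic genes, described next, 111 had a listed promoter. Their median was -1.73 for the 26 with both motifs (96.2% called lower) and -0.75 for the 36 with neither (75% called lower). For DNA replication genes it was -1.69 for the 3 with both and -1.67 for the 13 with neither. Differences by motif were not tested. The 6 printed promoters with both belong to genes that fell by between 1.78 (Kif22) and 2.41 (Espl1) on the log2 scale. Ccnb1, with CCAAT alone, lay inside that range at -2.04, and Pttg1, with neither, lay just outside it at -1.72. Among all tested genes, 44.7% of the 646 with both motifs were called lower and 34.0% of the 6585 with neither. Those shares describe all genes, the 55 included.

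The wider mitotic machinery fell less evenly. Of 134 other mitotic genes, all tested, 114 were called lower and 8 higher between DMSO and day 0, with a median of -1.23. Of all tested genes 32.6% were called lower and 33.8% higher. The other checkpoint genes came closest to the 55 (11 of 11 lower, median -1.86, the deepest fall in Trip13 at -2.32, SE 0.0993), followed by mitotic entry genes (11 of 13 lower, median -1.53, Gtse1 at -2.26, SE 0.0868), spindle and centrosome genes (32 of 35 lower, median -1.52, Ccnf at -2.42, SE 0.0798) and centromere and kinetochore genes (26 of 26 lower, median -1.45, Cenph at -2.27, SE 0.0868). All 3 subunits particular to condensin II fell, by a median of -0.99, Ncapg2 the most (-1.69, SE 0.0480). Genes of the anaphase-promoting complex, which also works in resting cells, had a median of -0.19 (11 of 17 lower, 2 higher). That list held its subunits together with Fzr1 (an activator, -0.91), Ube2s (a ubiquitin-conjugating enzyme, -1.02) and Fbxo5 (an inhibitor, -2.22, SE 0.0645), which had the 3 largest falls of the 17. Cohesin and its loaders had a median of -0.35 (8 of 13 lower, 3 higher), from Cdca5, the sororin gene of dividing cells, at -2.05 (SE 0.0839) to the loader Mau2 at 0.46 (SE 0.0430). Genes of DREAM, MuvB, NF-Y and the repressor E2F proteins had a median of -0.61 (12 of 16 lower, 2 higher), between -1.597 and 0.4606. The pocket protein genes lay on opposite sides, with Rbl1 (p107) at -1.60 (SE 0.0523). Rbl2 (p130) was called higher at 0.35 (SE 0.0499, adjusted p 1.25e-07 by edgeR), which was not the largest rise of this list. In 46 DNA replication genes the median was -1.67 and all 46 were called lower. Without DMSO replicate 2, 116 of the 134 were called lower and 8 higher (median -1.20), and all 46 replication genes were called lower (median -1.59). Differences between these lists were not tested, and the 55 genes and the role lists were chosen with earlier results of these data known.

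**Figure D3:**
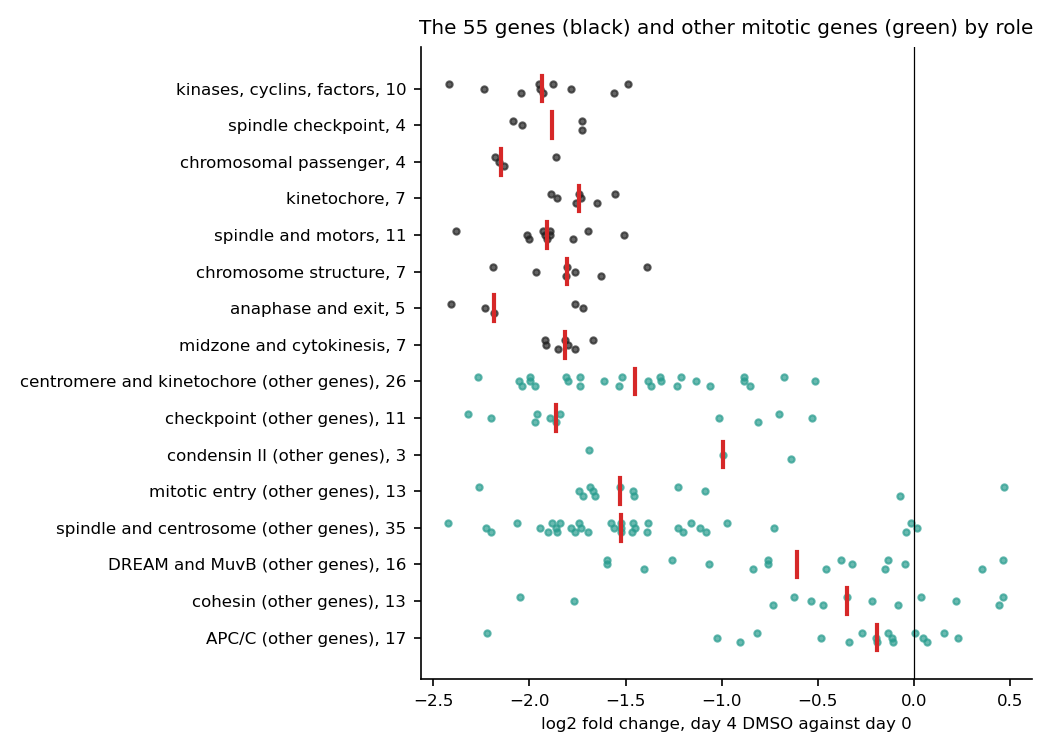
Log2 fold change between day 4 DMSO and day 0 on the horizontal axis, 1 point per gene, by role, with the number of genes after each name and red bars for medians. All 55 genes (black) lie between -2.42 and -1.39, while the other mitotic genes (green) reach from -2.42 to 0.47, with the anaphase-promoting complex and cohesin nearest 0.

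With 4-PBA in the medium the fall from day 0 was of the same kind. All 55 genes were again called lower than at day 0 by edgeR's quasi-likelihood test (adjusted p-values from 9.17e-27 to 0.00155), against 65.6% of all tested genes called, 33.2% as higher and 32.4% as lower. Both 4-PBA libraries lay below both day 0 libraries for all 55, as for 40.1% of all tested genes (41.7% lay above). The median log2 fold change was -1.65. All 55 fell at least 2-fold, against 9.59% of all tested genes, and 6 fell at least 4-fold, against 2.57%. Those 6 were Mybl2 (-2.29), Aurka (-2.17), Espl1 (-2.16), Cdc20 (-2.05), Aurkb (-2.01) and Plk1 (-2.01). The smallest falls were in Nusap1 (-1.16, SE 0.0658), Ccnb2 (-1.21, SE 0.0601) and Smc4 (-1.26, SE 0.0554). The mean level left was between 20.4% and 44.9% of day 0, with a median of 32.0%. These values share the day 0 libraries with the DMSO comparison and are set beside it only as values.

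Both day 4 groups were then compared with each other to ask whether the drug left more or less mitotic mRNA behind. All 55 genes had a higher mean with 4-PBA, but by little: the median log2 fold change was 0.21, a 1.16-fold difference, between 0.082 for Kif18b and 0.35 for Nusap1, while the median of all tested genes was 0.0021. edgeR's quasi-likelihood test called 21 of the 55 (38.2%), all higher, against 4.9% of all tested genes called, 2.13% as higher and 2.78% as lower. Both 4-PBA libraries lay above both DMSO libraries for 45 of the 55 (81.8%), against 23% of all tested genes (22.5% lay below). With 2 libraries against 2, an exact permutation test of a single gene cannot give a p-value under 0.333.

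Among the called genes, Smc2 had the smallest adjusted p (log2 fold change 0.20, SE 0.0417, adjusted p 0.00232 by edgeR), followed by Kif11 (0.28, SE 0.0569, 0.00422) and Nusap1 (0.35, SE 0.0690, 0.00508). For these 3 both 4-PBA libraries lay above both DMSO libraries, as the values given with each role show. By role the genes called higher were 5 of 10 entry regulators (Ccna2, Ccnb2, Plk1, Melk and Nek2), 1 of 4 checkpoint genes (Mad2l1), 2 of 4 passenger genes (Incenp and Cdca8), 4 of 7 kinetochore genes (Cenpa, Nuf2, Spc24 and Spc25), 3 of 11 spindle genes (Kif11, Kif22 and Nusap1), 3 of 7 chromosome structure genes (Smc2, Ncapg and Ncaph) and 3 of 5 exit genes (Cdc20, Cdca3 and Pttg1). None of the 7 midzone and cytokinesis genes was called, with log2 fold changes from 0.12 for Anln to 0.25 for Kif4. The called changes lay between 0.18 for Cdc20 and 0.35 for Nusap1, and none reached 1.5-fold.

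Several of the best known proliferation genes were not called. The log2 fold change was 0.19 for Mki67 (SE 0.0617, adjusted p 0.163 by edgeR), 0.17 for Cdk1 (SE 0.0980, adjusted p 0.502), 0.25 for Top2a (SE 0.0894, adjusted p 0.299) and 0.12 for Aurkb (SE 0.153, adjusted p 0.811). The changes of Mki67 and Top2a lay within the range of the called genes. Bub1 (0.35, SE 0.0975, adjusted p 0.117) differed about as much as Nusap1 without being called. Foxm1 stood at 0.17 (SE 0.0627) and Mybl2 at 0.12 (SE 0.0729), and for Mybl2 the 4-PBA libraries (14.4 and 14.3 CPM) fell between the DMSO libraries (14.5 and 12.02 CPM).

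**Figure D4:**
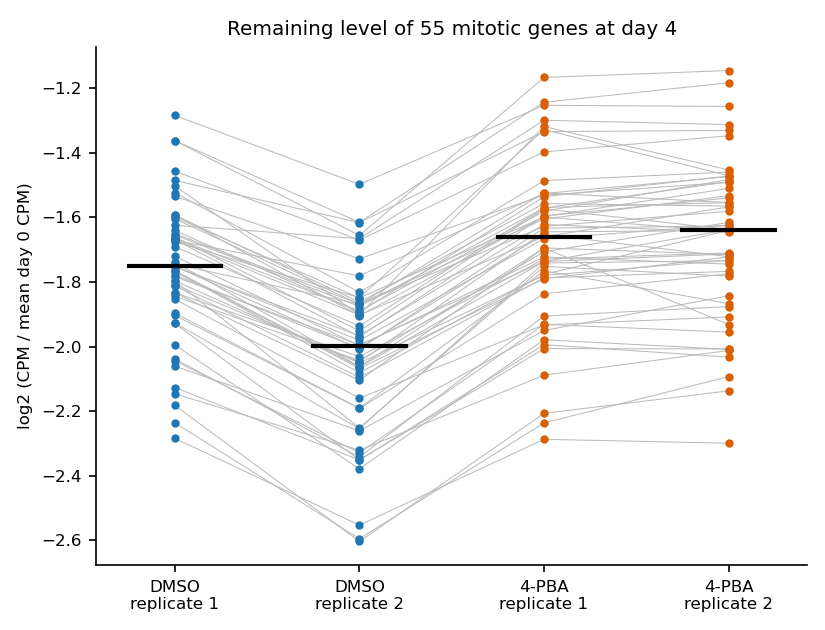
Level of each of the 55 genes in the 4 day 4 libraries as log2 of CPM over the mean day 0 CPM, with grey lines joining a gene and black bars at the medians. The medians are -1.752 and -1.997 in DMSO replicates 1 and 2 and -1.66 and -1.64 in 4-PBA replicates 1 and 2.

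How large the difference was depended on which DMSO library was used. Against DMSO replicate 1, the median gene differed by 0.080 and 0.11 in 4-PBA replicates 1 and 2, with 47 and 49 of the 55 genes higher; against DMSO replicate 2 it differed by 0.34 and 0.35, with 55 of 55 higher. In fits without DMSO replicate 2 the median log2 fold change was 0.092, and edgeR called 6 of the 55 (10.9%) beside 5.24% of all genes: Top2a, Bub1, Kif11, Nusap1, Spc24 and Smc2. No entry regulator, passenger, exit or cytokinesis gene was called in those fits. Of the 21 called with all libraries, 4 remained (Kif11, Nusap1, Spc24 and Smc2), and 4 genes had a negative value (Aurkb, Kif18b, Anln and Mybl2). Without DMSO replicate 1 the median was 0.34 and all 55 were called higher, beside 6.51% of all genes called. Leaving out 4-PBA replicate 1 left 6 calls (Kif22, Melk, Cdca8, Mad2l1, Ncaph and Smc2) at a median of 0.23, beside 1.85% of all genes called. Leaving out 4-PBA replicate 2 left 1 call (Pttg1) at a median of 0.20, beside 1.61% of all genes. Smc2 was called in 5 of the 6 fits that leave out a library, the most of any of the 55. In these fits a group with 1 library is assumed to vary like the others.

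**Figure D5:**
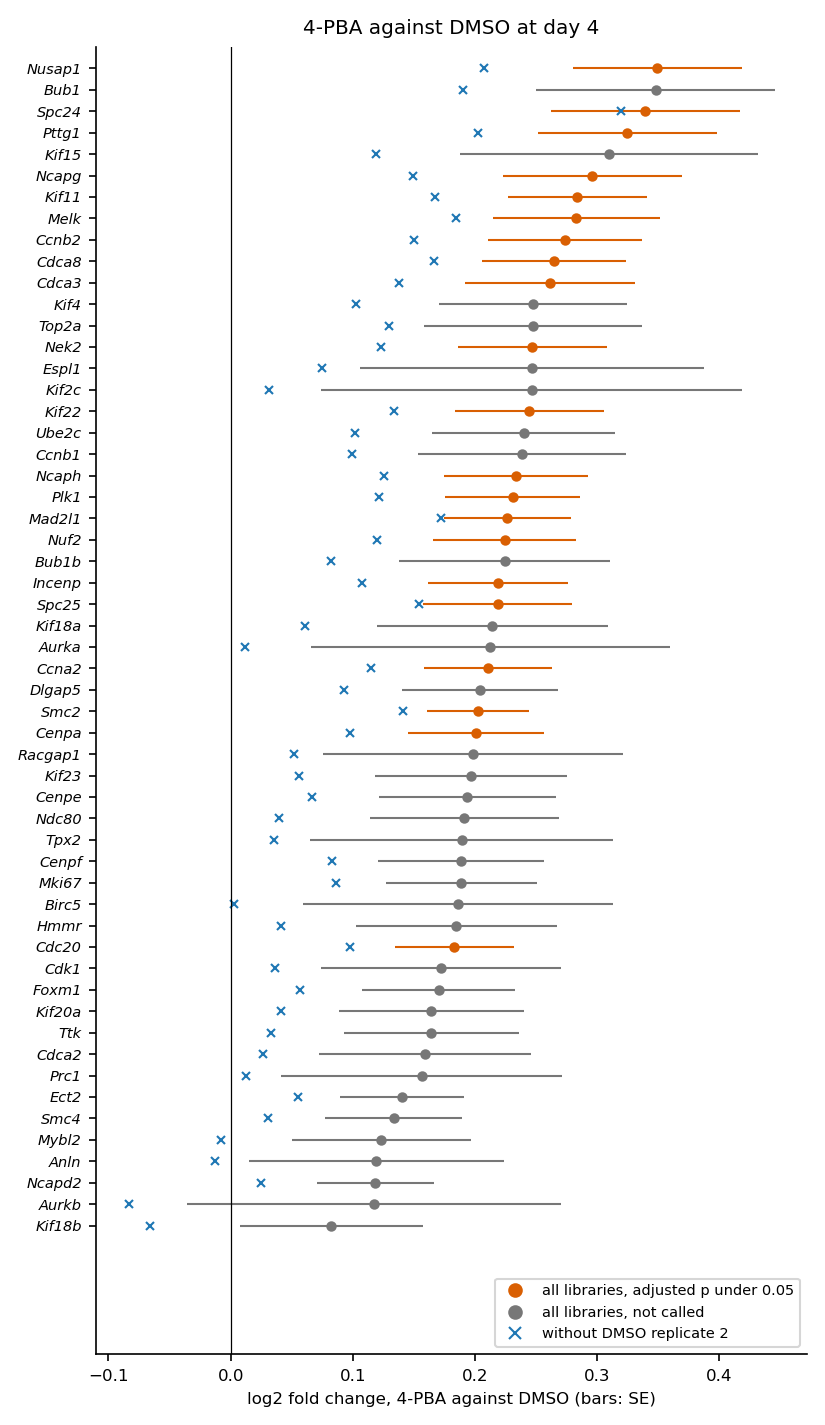
Log2 fold change between 4-PBA and DMSO at day 4 for the 55 genes, sorted by size, with bars of 1 SE on each side, orange for genes called by edgeR and grey for the rest. Blue crosses give the value without DMSO replicate 2, which is smaller for all 55 genes and negative for 4.

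Of the 134 other mitotic genes 22 were called higher and 1 lower between 4-PBA and DMSO, 111 were not called, and the median was 0.12. In this comparison 2.13% of all tested genes were called higher and 2.78% lower. The largest rises by role included Cenph (0.42, SE 0.0952), a constitutive centromere gene that stood at 5.88 CPM with DMSO and 7.87 CPM with 4-PBA, and Cdca5 (0.41, SE 0.0906). The gene called lower was Zwint of the kinetochore (-0.18, SE 0.0326, adjusted p 6.27e-04 by edgeR), which stood at 166 CPM with DMSO and 147 CPM with 4-PBA. Of the 46 replication genes 15 were called higher and 0 lower, with a median of 0.17. Their summed level also dipped in DMSO replicate 2, at 1359 CPM against 1492 CPM in replicate 1 and 1580 and 1595 CPM with 4-PBA; that of the 55 mitotic genes was 2074, 2475, 2595 and 2631 CPM in the same order. Of the 10 myotube markers 4 were called lower with 4-PBA and 0 higher, with a median of -0.11, and the part of this in the result was not tested. Without DMSO replicate 2, the median was 0.058 for the other mitotic genes and 0.10 for the replication genes. It was -0.047 for the myotube markers and 0.0045 for all tested genes, and Zwint stood at -0.20. Cenph then stood at 0.36 (adjusted p 0.0459 by edgeR) and Cdca5, no longer called, at 0.28 (adjusted p 0.0989).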

How the data were processed

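Raw counts per gene symbol for 6 libraries were deposited by the authors, with no normalisation and no pooling per the file headers; per the submitters' processing notes the build was GRCm39, and the aligner, counting tool, annotation and strand setting are not given in the sources used here. Libraries were directional, per the labels' protocols. The 55 genes, the role lists, motifs and tests were chosen with earlier results of these data known.

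The tests used edgeR 4.0.16 (R 4.3.3). Its filterByExpr kept 17433 of 43074 genes, sizes were scaled with TMM, and the model gave each group its own mean, with robust dispersions from the 6 libraries (3 residual degrees of freedom). Genes with an adjusted p under 0.05 over all tested genes were called. CPM values use TMM-scaled library sizes. SE values were derived from each log2 fold change and its F statistic (absolute change over root F). Samples were grouped by title, and all carried batch 1. Replicates differed by more than sampling noise (chi-square per degree of freedom 3.77, 6.64 and 5.34 at day 0, with DMSO and with 4-PBA). Every gene of the set could be named; library values were given for 21 fixed genes and for those with the largest, smallest or best supported changes. Of the other mitotic genes, the called gene with the largest rise and fall per role could be named. Rbl2, Fzr1 and Ube2s were named outside that rule. Alternatives used DESeq2 1.42.0, limma 3.58.1, other scalings, filters and thresholds, a replicate block and each library left out. Promoters came from RefSeq (GRCm38.p6), and figures from matplotlib 3.10.9.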

Additional observations from a re-analysis of the deposited data

How the results depend on the processing

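Both comparisons with day 0 called all 55 genes lower under every alternative run, with medians between -1.753 and -1.995 for DMSO and between -1.63 and -1.66 for 4-PBA when each library was left out or a setting changed; the 4-PBA median moved by more than its spread over library pairs with library size only, to -1.66. Between 4-PBA and DMSO the count of 21 was 43 with no filter beyond 1 count (3.64% of all genes called), 8 at an adjusted p under 0.01 (2.43%) and 0 with an added change of at least 1.5-fold (0.338%), and ranged from 1 to 55 when each library was left out; the causes were not tested. Its median of 0.21 ranged from 0.092 to 0.34. With DMSO replicate 2 left out, signs reversed for Aurkb, Mybl2, Kif18b and Anln, none of them called; their ranges over the fits that leave out 1 library were -0.083 to 0.34 for Aurkb, -0.0083 to 0.26 for Mybl2, -0.066 to 0.24 for Kif18b and -0.013 to 0.26 for Anln. The replicate block, for numbers that share no stated origin (correlations of deviations -0.028, -0.0031 and -0.012), gave 55, 55 and 24 calls and 768 of all genes between 4-PBA and DMSO against 855. The lowest count behind any value of the 55 was 537, and 2 libraries per group limit the precision.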
